A study of Homo sapiens with 9 samples.

Results

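The genes described here are 10 members of the fibroblast growth factor (FGF) system: the ligand genes FGF2, FGF4, FGF8, FGF13, FGF17 and FGF19 and the receptor genes FGFR1, FGFR2, FGFR3 and FGFR4. They were taken by symbol from a count table of 40332 gene symbols, and all 10 passed the filter on low counts. The table holds RNA-seq of H1, an established wild-type human embryonic stem cell line, in 9 libraries that form 3 groups of 3. In the first group, cells brought from PXGL into N2B27 basal medium received 5 µM EPZ-6438, an inhibitor of the histone methyltransferase EZH2, for 3 days. The second group was in N2B27 without the inhibitor, for a time that the sources used here do not give. The third was kept in PXGL, a medium for naive human pluripotent cells that contains a MEK inhibitor, a tankyrase inhibitor, a protein kinase C inhibitor and LIF. H1 is a single line, and EZH2 is the catalytic subunit of Polycomb repressive complex 2 (PRC2), which places H3K27me3 on repressed developmental genes. Inhibitor and N2B27 libraries may also differ in time out of PXGL, and inhibitor and time then cannot be told apart.

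Secreted FGFs bind receptor tyrosine kinases of the FGFR family together with heparan sulfate on the cell surface, and the bound receptors signal through FRS2, RAS, MEK and ERK. In the mouse blastocyst, FGF4 from the epiblast drives neighbouring inner cells towards primitive endoderm through FGFR1 and FGFR2. FGF2 is the factor added to conventional human embryonic stem cell cultures. ERK signalling switches on its own inhibitors, the Sprouty, SPRED and DUSP proteins, and the MEK inhibitor of PXGL acts between the receptors and those genes.

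Total counts per library were 14719595 to 16479593 with EPZ-6438, 14482124 to 15295189 in N2B27 and 17499691 to 18358519 in PXGL, so that 3 counts correspond to 0.163 to 0.207 counts per 1000000 (CPM). The labelled cell type matched its markers: all 5 pluripotency markers were detected in every group, with summed levels of 3696 to 3739 CPM with EPZ-6438, 4492 to 4568 CPM in N2B27 and 3196 to 3536 CPM in PXGL. One library, PXGL replicate 1, was unlike its group mates. The chi-square per degree of freedom between its counts and theirs was 19.6 and 26.3, against 3.41 between the other two. Its ribosomal protein share was 7.22%, where PXGL replicates 2 and 3 had 5.92% and 5.51%. Calls of members, and those counts of lists reported below, that change when it is left out are given both ways.

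Between the EPZ-6438 and N2B27 libraries, FGF8 and FGF13 rose and FGF2, FGF4, FGFR1 and FGFR4 fell, while FGF17, FGF19, FGFR2 and FGFR3 did not pass the test (edgeR quasi-likelihood test, Benjamini-Hochberg adjusted p under 0.05 over 15179 genes). Here and below, rose and fell mean higher and lower in the group named first. The 6 called members are 6 of 10, where 24.7% of all tested genes were called, 14.2% higher and 10.6% lower. The median log2 fold change was −0.24 over the members and 0.01 over all tested genes. The 2 groups' library ranges lay apart for 9 of 10 members, all but FGF17, and for 46.4% of all tested genes. PXGL replicate 1 is in neither group, but it enters this comparison through the low-count filter, the scaling and the shared estimate of the spread. Without this library, 3 members were higher and 6 lower, and 37.2% of 15522 tested genes were called, 19.2% higher and 17.9% lower.

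Between N2B27 and PXGL, FGF2, FGF8, FGF13, FGF17, FGF19, FGFR1 and FGFR3 rose, FGF4 and FGFR2 fell, and FGFR4 did not pass the test. The background was high here, with 56% of all tested genes called, 27.3% higher and 28.7% lower. Library ranges lay apart for 8 of 10 members and for 60.8% of all genes, and the median log2 fold change was 0.59 over the members and −0.03 over all genes. Between EPZ-6438 and PXGL, 7 members rose, FGF4 and FGFR4 fell and FGFR2 did not pass, against 56.1% of all genes called, 28.1% higher and 28% lower. Library ranges lay apart for 9 of 10 members and for 60.7% of all genes in this comparison. The comparisons share libraries, so their values are set side by side below and are not independent of each other.

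**Figure D1:**
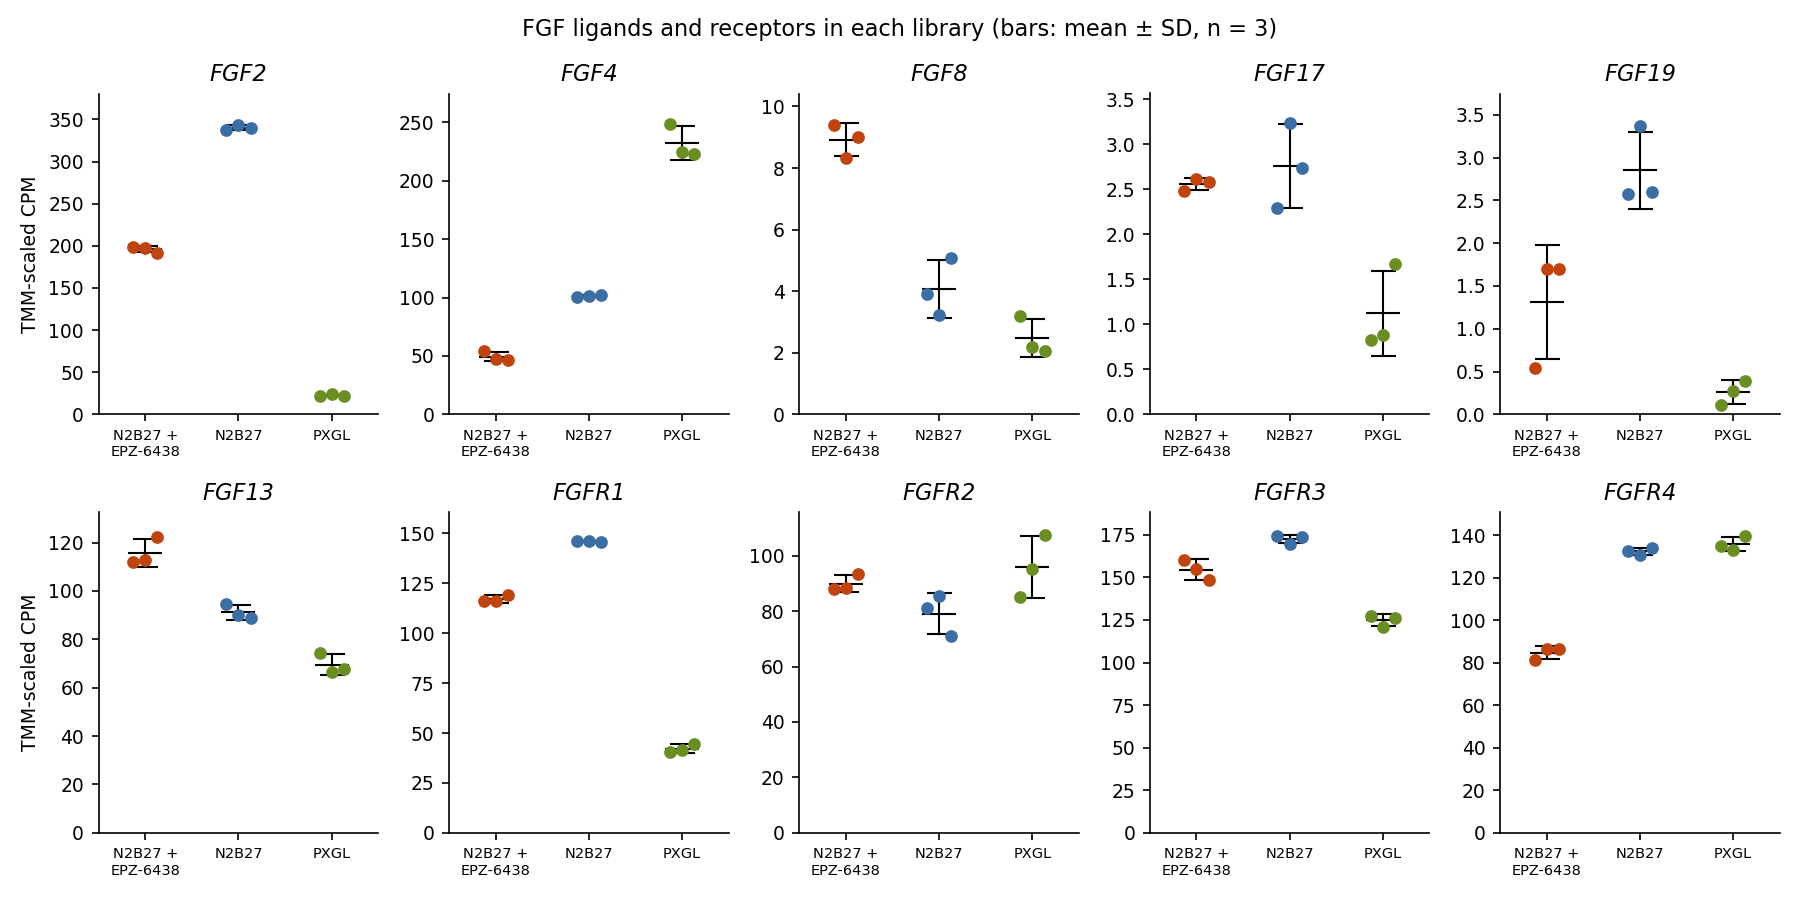
Level of each FGF gene in each library in TMM-scaled CPM (vertical axes from 0), with 1 point per library and bars for the mean ± SD of 3 libraries. FGF2 and FGFR1 are highest in N2B27 and lowest in PXGL, FGF4 is lowest with EPZ-6438, and FGF8 and FGF13 are highest with EPZ-6438.

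FGF2, a secreted ligand that keeps primed human pluripotent cells undifferentiated in culture, lies at chr4:122826708-122898236 on the plus strand (hg38, GENCODE 29). It had 198.6, 196.8 and 191.8 CPM in the EPZ-6438 libraries, 337.1, 343.1 and 339.7 CPM in N2B27, and 22.1, 23.5 and 21.9 CPM in PXGL. The 3 groups did not overlap, and the SD within each was at most 3.51 CPM. FGF2 was 1.74-fold lower with EPZ-6438 than in N2B27 (log2 fold change −0.80 ± 0.06 SE, adjusted p = 2.81e-08). It was 15.1-fold higher in N2B27 than in PXGL (3.92 ± 0.07, adjusted p = 1.18e-16) and 8.7-fold higher with EPZ-6438 than in PXGL (adjusted p = 9.83e-16). With the inhibitor it lay between the other two groups. A list of 8 fibroblast markers ran in the same order, with sums of 85.9 to 90.3 CPM with EPZ-6438, 165 to 180 CPM in N2B27 and 14.8 to 20.1 CPM in PXGL. THY1 made up much of it, with means of 43.5 CPM with EPZ-6438, 118 CPM in N2B27 and 0.623 CPM in PXGL, and COL1A1 and COL1A2 most of the rest, while COL3A1, LUM, DCN and POSTN had 11, 2, 2 and 20 counts over all 9 libraries. DCN had no count with EPZ-6438, COL3A1, LUM and DCN had none in N2B27, and LUM and POSTN had none in PXGL. Bulk RNA does not show which cells the THY1 and collagen reads came from. Whether fibroblasts were present at all, and any part of them in the FGF2 and FGFR1 values, was not tested.

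FGF4, the ligand that mouse epiblast cells secrete, lies at chr11:69771016-69775403 on the minus strand. Its levels were 54.3, 47.7 and 46.5 CPM with EPZ-6438, 100.5, 101.5 and 102.0 CPM in N2B27, and 249.1, 224.9 and 223.2 CPM in PXGL. All 3 groups were apart, in the order PXGL, N2B27, EPZ-6438 from high to low. FGF4 was 2.05-fold lower with EPZ-6438 than in N2B27 (log2 fold change −1.03 ± 0.07 SE, adjusted p = 2.77e-08) and 2.29-fold lower in N2B27 than in PXGL (−1.20 ± 0.07, adjusted p = 4.16e-10). Against PXGL the EPZ-6438 libraries were 4.7-fold lower (95% interval of the log2 fold change −2.39 to −2.08). Between EPZ-6438 and N2B27, where 10.6% of all genes fell, all 5 pluripotency markers also fell, with a median log2 fold change of −0.34. Their part in the FGF4 result was not tested, and in bulk RNA fewer cells of a type and less RNA per cell cannot be told apart.

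FGF8 and FGF17 belong to one ligand subfamily that, in the mouse, is active in the primitive streak and at the boundary of midbrain and hindbrain. FGF8, at chr10:101770130-101780369 on the minus strand, had 9.39, 8.33 and 9.02 CPM with EPZ-6438, 3.90, 3.23 and 5.07 CPM in N2B27 and 3.18, 2.19 and 2.06 CPM in PXGL. The EPZ-6438 libraries lay above all others, and N2B27 and PXGL nearly met. It was 2.18-fold higher with EPZ-6438 than in N2B27 (log2 fold change 1.13 ± 0.21 SE, adjusted p = 0.000745) and 3.59-fold higher than in PXGL (adjusted p = 1.9e-06). Its 1.64-fold difference between N2B27 and PXGL (adjusted p = 0.0141) lost its call without N2B27 replicate 3 (adjusted p = 0.0909), without PXGL replicate 2 (0.0535) and without PXGL replicate 3 (0.0547).

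Marker sums of several other cell types were also highest with EPZ-6438. A list of 9 mesendoderm markers summed to 165 to 177 CPM with EPZ-6438, 26.7 to 31.0 CPM in N2B27 and 15.1 to 17.7 CPM in PXGL, and 6 of its 7 tested genes rose between EPZ-6438 and N2B27. All 9 were detected with EPZ-6438 and in N2B27, while GSC and MSGN1 had no count in PXGL. A list of 9 neural markers summed to 26.8 to 29.5 CPM with EPZ-6438, 13.6 to 15.0 CPM in N2B27 and 5.86 to 6.83 CPM in PXGL, with OTX1 and PAX2 at 0 in N2B27, and 3 of its 5 tested genes rose between EPZ-6438 and N2B27. GBX2 made up most of the N2B27 sum, with means of 11.5 CPM with EPZ-6438, 8.74 CPM in N2B27 and 0.642 CPM in PXGL. Of the 5 tested, only GBX2 rose between N2B27 and PXGL, and ZIC1 fell (1.10 and 1.95 CPM, adjusted p = 0.0166). In that comparison 27.3% of all genes rose and 28.7% fell. Hypoblast markers, of which APOA1 had no count in any library, summed to 185 to 188 CPM with EPZ-6438, 111 to 119 CPM in N2B27 and 57.6 to 74.3 CPM in PXGL, and 4 of 5 tested rose between EPZ-6438 and N2B27. Trophectoderm and amnion markers, with CGA at 0 in every library, summed to 88.2 to 96.4 CPM with EPZ-6438, 87.0 to 92.6 CPM in N2B27 and 100.6 to 105.8 CPM in PXGL. That sum is mostly TFAP2C, which averaged 76.4 CPM with EPZ-6438, 83.8 CPM in N2B27 and 89.5 CPM in PXGL and did not pass between EPZ-6438 and N2B27. Of the 7 tested genes of this list 4 rose there, GATA3, ISL1, TFAP2A and CDX2, the last with 112 counts over the EPZ-6438 libraries and 2 over the N2B27 libraries. ISL1 and TFAP2A averaged 3.98 and 1.54 CPM with EPZ-6438 but 6.33 and 2.74 CPM in PXGL (adjusted p = 0.00904 and 0.127 between these groups). GATA3 and CDX2 averaged 6.68 and 2.45 CPM with EPZ-6438 and 3.27 and 0.531 CPM in PXGL. Of all tested genes, 14.2% rose between EPZ-6438 and N2B27. Leaving out PXGL replicate 1 gave 5 hypoblast and 4 neural markers that rose and 1 trophectoderm and amnion marker that fell. In that fit 19.2% of all genes rose and 17.9% fell. Whether such cells were present, and any part of them in the FGF8 values, was not tested. In bulk RNA, more cells of a type and more RNA of its markers per cell cannot be told apart.

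FGF17, at chr8:22042398-22048809 on the plus strand, was low throughout. It had 2.48, 2.62 and 2.58 CPM with EPZ-6438, 2.30, 3.23 and 2.73 CPM in N2B27, and 0.823, 0.877 and 1.67 CPM in PXGL. The EPZ-6438 values fell inside the N2B27 range, and no difference passed (log2 fold change −0.11, 95% interval −0.73 to 0.52, adjusted p = 0.834). Both groups lay above PXGL, by 2.45-fold in N2B27 (adjusted p = 0.00246) and by 2.27-fold with EPZ-6438 (adjusted p = 0.00456).

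FGF19, an endocrine-type ligand whose known receptor in the liver is FGFR4 with the co-receptor β-Klotho, lies at chr11:69698232-69704642 on the minus strand. It was counted 8, 28 and 25 times with EPZ-6438, 37, 48 and 39 times in N2B27, and 2, 5 and 7 times in PXGL. In CPM these were 0.537, 1.703 and 1.695 with EPZ-6438, 2.58, 3.38 and 2.60 in N2B27, and 0.110, 0.274 and 0.389 in PXGL, and EPZ-6438 replicate 1 stood below its group mates. FGF19 was 10.8-fold higher in N2B27 than in PXGL (log2 fold change 3.43 ± 0.51 SE, adjusted p = 2.4e-05) and 5-fold higher with EPZ-6438 than in PXGL (adjusted p = 0.00154). The EPZ-6438 libraries lay below all N2B27 libraries, but the difference did not pass (−1.11, 95% interval −1.99 to −0.23, adjusted p = 0.0618). It passed in 6 of 16 alternatives, among them DESeq2 (adjusted p = 0.0457), a fit without the low-count filter (0.0369), a fit of these 2 groups alone (0.0116) and fits without PXGL replicate 1 (0.0188) or 3 (0.0473). KLB, the gene of β-Klotho, averaged 0.761 CPM with EPZ-6438, 0.664 CPM in N2B27 and 0.368 CPM in PXGL and passed in no comparison.

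FGF13 differs from the other 5 in kind: it is an intracellular FGF homologous factor that binds voltage-gated sodium channels and does not act through FGFRs. The gene lies at chrX:138614731-139222777 on the minus strand. It had 111.8, 112.9 and 122.3 CPM with EPZ-6438, 94.7, 90.0 and 88.8 CPM in N2B27 and 74.5, 66.4 and 67.6 CPM in PXGL. The groups did not overlap and ran opposite to FGF4. FGF13 was 1.27-fold higher with EPZ-6438 than in N2B27 (log2 fold change 0.34 ± 0.07 SE, adjusted p = 0.00148), 1.31-fold higher in N2B27 than in PXGL (adjusted p = 0.000158) and 1.67-fold higher with EPZ-6438 than in PXGL (adjusted p = 1.51e-07).

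**Figure D2:**
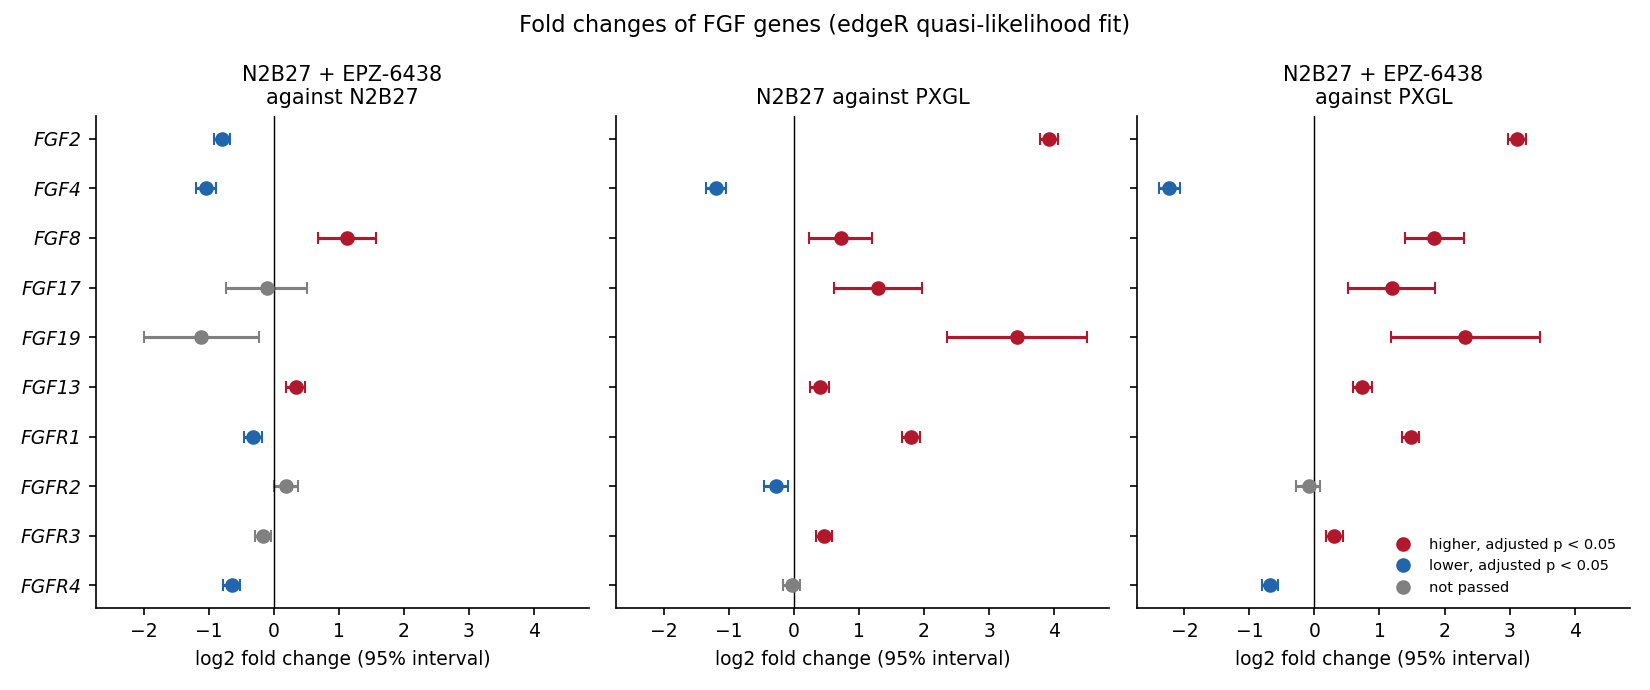
Log2 fold changes of the FGF genes in the 3 comparisons (horizontal axis) with 95% intervals from the edgeR fit of all 9 libraries; red is higher and blue lower with adjusted p under 0.05, and grey did not pass. Intervals are widest for FGF17 and FGF19, the genes with the fewest counts, and FGF2 shows the largest increase over PXGL in both comparisons with it.

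Of the receptors, FGFR1 had the largest range between media. FGFR1, which with FGFR2 receives FGF4 in the mouse inner cell mass, lies at chr8:38400215-38468834 on the minus strand. It had 116.3, 116.0 and 119.3 CPM with EPZ-6438, 146.2, 146.2 and 145.6 CPM in N2B27 and 40.3, 41.4 and 44.6 CPM in PXGL. As for FGF2, the groups were apart and the EPZ-6438 libraries lay between the other two. FGFR1 was 1.25-fold lower with EPZ-6438 than in N2B27 (log2 fold change −0.32 ± 0.06 SE, adjusted p = 0.00113). It was 3.47-fold higher in N2B27 than in PXGL (1.79 ± 0.07, adjusted p = 9.03e-13) and 2.79-fold higher with EPZ-6438 than in PXGL (adjusted p = 9.83e-12).

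FGFR4, a receptor known for its role in liver bile acid control, lies at chr5:177086886-177098144 on the plus strand. Its levels were 81.1, 86.4 and 86.4 CPM with EPZ-6438, 132.6, 130.8 and 133.8 CPM in N2B27 and 134.9, 133.3 and 139.5 CPM in PXGL. Only the inhibitor libraries stood apart, and the N2B27 and PXGL ranges overlapped. FGFR4 was 1.57-fold lower with EPZ-6438 than in N2B27 (log2 fold change −0.65 ± 0.06 SE, adjusted p = 7.83e-07) and 1.61-fold lower than in PXGL (adjusted p = 6.87e-08). Between N2B27 and PXGL the difference did not pass (−0.04, 95% interval −0.16 to 0.09, adjusted p = 0.617).

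FGFR3, a receptor best known for restraining bone growth, lies at chr4:1793293-1808872 on the plus strand. It had 160.2, 155.1 and 148.2 CPM with EPZ-6438, 174.3, 169.6 and 173.6 CPM in N2B27 and 127.4, 121.0 and 126.4 CPM in PXGL. Each group was apart from the others, with N2B27 highest. FGFR3 was 1.38-fold higher in N2B27 than in PXGL (adjusted p = 4.71e-06) and 1.24-fold higher with EPZ-6438 than in PXGL (adjusted p = 0.000322). The difference between EPZ-6438 and N2B27 did not pass (log2 fold change −0.16, 95% interval −0.28 to −0.03, adjusted p = 0.0603), but did so in 4 of 16 alternatives: DESeq2 (adjusted p = 0.0277), DESeq2 size factors in edgeR (0.0446), these 2 groups alone (0.00235) and without PXGL replicate 1 (0.00249).

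FGFR2, whose splice forms bind different ligands in epithelium and mesenchyme, lies at chr10:121478334-121598458 on the minus strand. It had 87.8, 88.4 and 93.4 CPM with EPZ-6438, 81.0, 85.3 and 70.9 CPM in N2B27 and 84.96, 95.1 and 107.4 CPM in PXGL. The PXGL libraries were the most spread and overlapped both other groups. FGFR2 was 1.21-fold lower in N2B27 than in PXGL (adjusted p = 0.0127), a call lost without N2B27 replicate 3 (adjusted p = 0.0912) and without PXGL replicate 3 (adjusted p = 0.0674). EPZ-6438 against N2B27 gave a log2 fold change of 0.19 (95% interval −0.001 to 0.372, adjusted p = 0.141), which passed without PXGL replicate 1 (adjusted p = 0.0124) and in a fit of these 2 groups alone (0.00812). EPZ-6438 against PXGL gave −0.09 (95% interval −0.28 to 0.09, adjusted p = 0.386), and it passed without PXGL replicate 1 (adjusted p = 0.0177). Gene counts do not separate the splice forms. ESRP1, a regulator of FGFR2 splicing in epithelial cells, averaged 245 ± 9.54 CPM with EPZ-6438, 283 ± 4.72 CPM in N2B27 and 189 ± 2.67 CPM in PXGL (SD, n = 3 each) and fell between EPZ-6438 and N2B27 (adjusted p = 0.0135), a call lost without EPZ-6438 replicate 1 or 2 or N2B27 replicate 3 (adjusted p up to 0.0721).

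Upstream sequences are shown for FGF2, the ligand with the largest change, and for FGFR2, FGFR3 and FGFR4, of which between N2B27 and PXGL FGFR3 rose, FGFR2 fell and FGFR4 did not pass the test. They come from RefSeq promoter windows on GRCh38.p14, which matched 5 of the 10 members, and are cut to the bases before the annotated gene start. FGFR2 and FGFR4 have further windows inside the gene that are not printed, with 3 to 7 CG dinucleotides for FGFR2 and 2 for FGFR4. All are in the direction of transcription, with CG dinucleotides in capitals; the FGF2 stretch is chr4:122826581-122826707 (plus strand), FGFR2 chr10:121598459-121598694 (minus), FGFR3 chr4:1793043-1793292 (plus) and FGFR4 chr5:177086665-177086885 (plus).
FGF2: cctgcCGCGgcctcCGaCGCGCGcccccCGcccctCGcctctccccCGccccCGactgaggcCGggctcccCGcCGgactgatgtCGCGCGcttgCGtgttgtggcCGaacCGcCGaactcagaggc
FGFR2: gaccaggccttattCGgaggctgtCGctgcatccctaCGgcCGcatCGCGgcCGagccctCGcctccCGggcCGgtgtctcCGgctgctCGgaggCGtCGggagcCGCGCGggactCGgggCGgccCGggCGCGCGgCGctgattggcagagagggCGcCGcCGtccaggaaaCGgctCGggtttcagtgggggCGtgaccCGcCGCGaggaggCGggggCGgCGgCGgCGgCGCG
FGFR3: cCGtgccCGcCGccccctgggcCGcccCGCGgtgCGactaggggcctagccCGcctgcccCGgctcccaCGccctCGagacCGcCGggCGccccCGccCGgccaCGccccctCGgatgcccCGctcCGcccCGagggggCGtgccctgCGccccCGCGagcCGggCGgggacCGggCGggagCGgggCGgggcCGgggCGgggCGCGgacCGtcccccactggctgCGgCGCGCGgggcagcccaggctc
FGFR4: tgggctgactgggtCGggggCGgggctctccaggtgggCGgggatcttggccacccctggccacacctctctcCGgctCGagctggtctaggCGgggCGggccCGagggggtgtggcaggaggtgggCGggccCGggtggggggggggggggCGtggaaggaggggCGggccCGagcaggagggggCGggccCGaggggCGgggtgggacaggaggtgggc
The stretches held 20 CG dinucleotides in 127 bases for FGF2, 40 in 236 for FGFR2, 40 in 250 for FGFR3 and 16 in 221 for FGFR4, with 78% to 86.8% G and C. The GC box GGGCGG, searched on both strands, occurred 2 times for FGF2, 2 times for FGFR2, 8 times for FGFR3 and 7 times for FGFR4. At least 1 such match stood in 42.6% of the 35116 windows in the table. In the uncut windows of these stretches, CCAAT (in 32% of all windows) matched only in FGFR2, and TATAAA (10.7%), CCGGAA (14.5%) and TGANTCA (6.57%) matched in none. Chromatin was not analysed here.

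Levels of different genes were compared per length, as mean CPM per kilobase of the longest annotated transcript. With EPZ-6438 the order was FGFR3 (34.8), FGF2 (28.9), FGFR4 (27.1), FGFR2 (20.6), FGFR1 (18.9), FGF4 (15.3), FGF8 (7.45), FGF13 (5.93), FGF17 (0.992) and FGF19 (0.536), and no neighbours overlapped. In N2B27 it was FGF2 (50.2), FGFR4 (42.4), FGFR3 (38.9), FGF4 (31.3), FGFR1 (23.5), FGFR2 (18.1), FGF13 (4.67), FGF8 (3.40), FGF19 (1.16) and FGF17 (1.07), of which the last pair overlapped. In PXGL it was FGF4 (71.9), FGFR4 (43.5), FGFR3 (28.1), FGFR2 (21.9), FGFR1 (6.77), FGF13 (3.56), FGF2 (3.32), FGF8 (2.07), FGF17 (0.435) and FGF19 (0.105), with overlap between FGF13 and FGF2. The leading gene was thus a receptor with EPZ-6438, FGF2 in N2B27 and FGF4 in PXGL. With the union of all exons as length the leading gene of each group was the same, but FGFR4 fell below FGFR3 and FGF4 in N2B27, FGF4 stood above FGFR2 and FGFR1 with EPZ-6438, and FGFR1 stood below FGF13 and FGF2 in PXGL.

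Summed per length, the 4 receptors came to 101.3 ± 0.398 CPM per kilobase with EPZ-6438, 122.9 ± 1.12 in N2B27 and 100.4 ± 3.95 in PXGL (SD, n = 3 each). Within that sum, FGFR4 took 26.8 ± 0.863% with EPZ-6438, 34.5 ± 0.64% in N2B27 and 43.4 ± 0.788% in PXGL. FGFR1 took 18.6 ± 0.258% with EPZ-6438, 19.1 ± 0.134% in N2B27 and 6.74 ± 0.111% in PXGL. Between N2B27 and PXGL the FGFR1 share differed most of the 4. FGFR3 took 34.4 ± 1.46% with EPZ-6438, 31.6 ± 0.567% in N2B27 and 28.1 ± 1.14% in PXGL, and FGFR2 took 20.3 ± 0.631% with EPZ-6438, 14.7 ± 1.28% in N2B27 and 21.8 ± 1.8% in PXGL.

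The 5 secreted ligands among the members, FGF13 left out, summed to 53.2 ± 1.72 CPM per kilobase with EPZ-6438, 87.2 ± 1.02 in N2B27 and 77.8 ± 4.79 in PXGL. Ligand genes outside the members, such as FGF18, are not in this sum. FGF18 averaged 20.2 CPM with EPZ-6438, 12 CPM in N2B27 and 2.51 CPM in PXGL, not scaled by length. FGF4 made up 28.8 ± 1.48% of the sum with EPZ-6438, 36.0 ± 0.142% in N2B27 and 92.4 ± 0.076% in PXGL. FGF2 made up 54.4 ± 1.1% with EPZ-6438, 57.6 ± 0.553% in N2B27 and 4.28 ± 0.347% in PXGL. Among these 5 ligands, the PXGL sum was nearly all FGF4, and both N2B27 groups held mostly FGF2. FGF8 took 14 ± 0.651% with EPZ-6438, 3.90 ± 0.863% in N2B27 and 2.64 ± 0.482% in PXGL. FGF17 and FGF19 stayed at or below 1.93% in every library. With 3 libraries against 3, the exact two-sided permutation test cannot go below p = 0.1. All but 3 of the 27 share differences gave that value, or 0.1125 after adjustment over the 27, so none could pass. The exceptions were FGFR2 between EPZ-6438 and PXGL (0.4), FGF19 between EPZ-6438 and N2B27 (0.6) and FGF8 between N2B27 and PXGL (0.2).

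**Figure D3:**
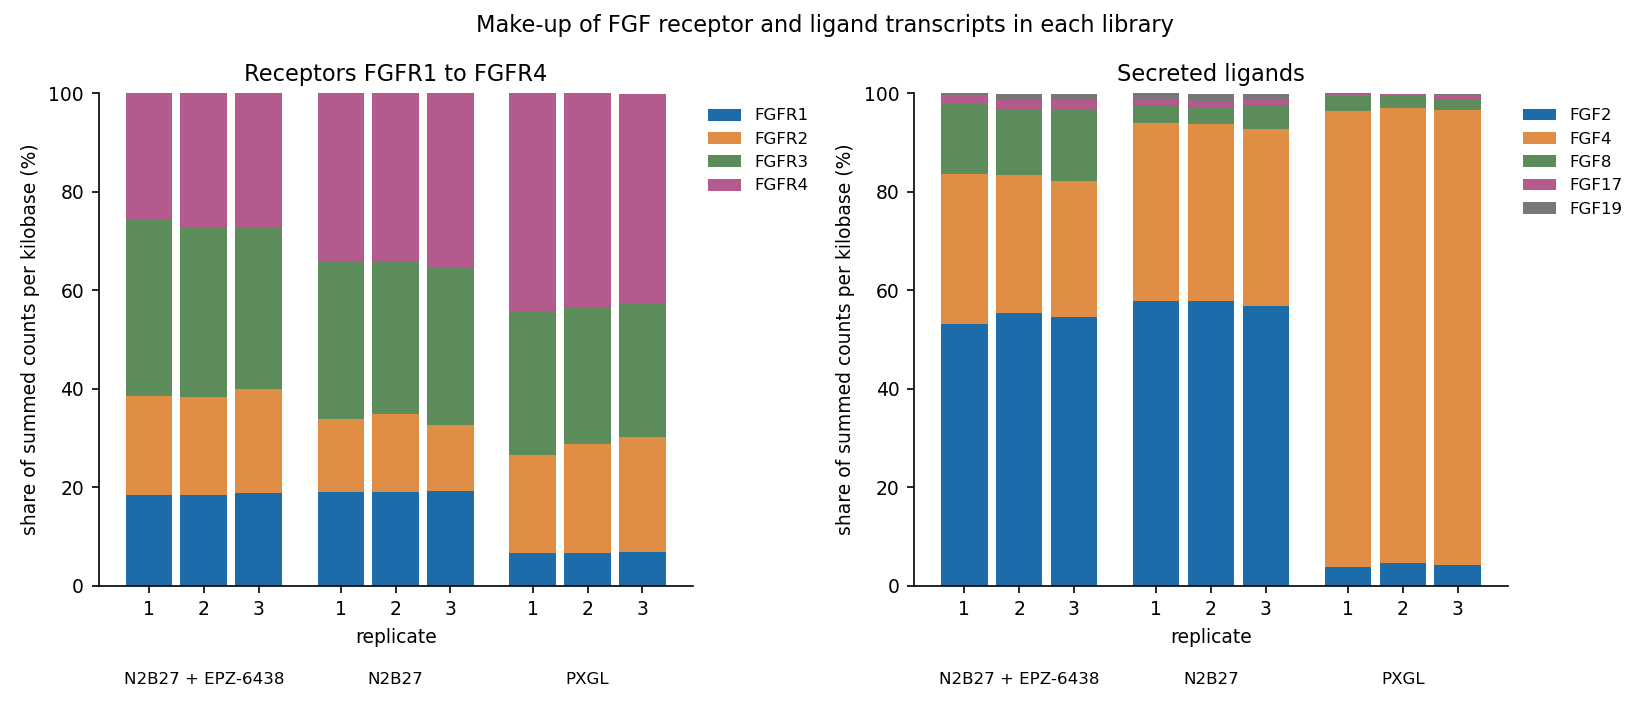
Share of each receptor (left) and each secreted ligand among the members (right) in the summed counts per kilobase of its set, in percent, with 1 bar per library grouped by culture. FGF4 fills at least 92.3% of the ligand bars in PXGL, and FGFR1 takes at most 6.84% of the receptor bars there.

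Among the 16 other FGF genes, 5 passed the filter, and FGF3, FGF7 and FGF20 had no count in any library. FGF18, a secreted ligand active in skeletal and lung development, averaged 20.2 ± 1.79 CPM with EPZ-6438, 12 ± 2.58 CPM in N2B27 and 2.51 ± 0.354 CPM in PXGL. It rose between EPZ-6438 and N2B27 (adjusted p = 0.00164) and between N2B27 and PXGL (adjusted p = 2.7e-08). FGF16 averaged 0.792 ± 0.28 CPM with EPZ-6438 and 2.12 ± 0.821 CPM in N2B27 and fell (adjusted p = 0.0388), as did FGF11, an intracellular factor like FGF13 (adjusted p = 0.03). Both calls were lost without EPZ-6438 replicate 1 or 2 or without N2B27 replicate 1 or 2, that of FGF16 also without replicate 3 of either group (adjusted p up to 0.212 for FGF16 and 0.127 for FGF11). FGF10, the mesenchymal ligand of FGFR2, had 88 counts over the N2B27 libraries and 3 over the PXGL libraries, a 36.7-fold ratio (95% counting interval 12.1 to 181). Of the 5 tested genes, 1 rose and 2 fell between EPZ-6438 and N2B27 (median log2 fold change −0.46) and 3 rose between N2B27 and PXGL (median 2.25), or 4 without PXGL replicate 1. Over all genes, 14.2% rose and 10.6% fell in the first comparison and 27.3% rose in the second.

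Genes of binding partners at the cell surface changed in both directions with the inhibitor. Of 12 co-receptor and binding-protein genes, 10 were tested, and 3 rose and 2 fell between EPZ-6438 and N2B27, with a median log2 fold change of 0.36. Of all genes, 14.2% rose and 10.6% fell there. FLRT3 and FLRT2, membrane proteins that bind FGFRs, had the largest changes: FLRT3 averaged 3.23 ± 0.624 CPM with EPZ-6438 and 0.325 ± 0.218 CPM in N2B27, and FLRT2 averaged 30.1 ± 1.13 CPM with EPZ-6438 and 9.30 ± 1.19 CPM in N2B27 (adjusted p = 2.36e-05 and 1.29e-07). FLRT2 had 0.330 ± 0.164 CPM in PXGL. Between N2B27 and PXGL, 4 of the tested genes of this list rose, or 3 without PXGL replicate 1, and 1, FLRT3, fell. In that comparison 27.3% of all genes rose and 28.7% fell.

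Heparan sulfate carries FGFs to their receptors, and 20 of 24 genes of its core proteins and enzymes were tested. Between EPZ-6438 and N2B27, 11 rose, with a median log2 fold change of 0.24, where 14.2% of all genes rose. Without PXGL replicate 1, 14 rose, where 19.2% of all genes did. The count of genes that fell was 0 in the edgeR fit, also at an unadjusted p under 0.05, and 0 with DESeq2. HS6ST2, which adds 6-O-sulfate, averaged 16 ± 0.198 CPM with EPZ-6438 and 5.26 ± 1.11 CPM in N2B27 (3.04-fold, adjusted p = 5e-06). EXT1, which elongates the chain, averaged 72.8 ± 1.58 CPM with EPZ-6438 and 40.0 ± 3.31 CPM in N2B27 (1.82-fold, adjusted p = 5.6e-07). NDST1, the most abundant of the list over the 9 libraries, had a log2 fold change of 0.14 and did not pass (adjusted p = 0.151), but did so without PXGL replicate 1 (0.00324). Between N2B27 and PXGL the list was split, with 9 higher and 6 lower (7 lower without PXGL replicate 1) and a median of 0.06, where 27.3% of all genes rose and 28.7% fell. SDC2, a syndecan core protein, averaged 25.3 ± 1.67 CPM in N2B27 and 1.63 ± 0.719 CPM in PXGL (adjusted p = 1.41e-11). SULF1, which removes 6-O-sulfate, had 211 counts over the N2B27 libraries and 1 over the PXGL libraries, a 264-fold ratio (counting interval 46.8 to 10500).

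Of 20 genes of adaptors and the RAS-MAPK core, 1 rose, 2 fell and 17 did not pass between EPZ-6438 and N2B27, and the median log2 fold change was −0.04. Over all genes 14.2% rose and 10.6% fell. Without PXGL replicate 1, 2 rose and 5 fell, where 19.2% and 17.9% of all genes did. BRAF rose (25.8 ± 1.03 CPM with EPZ-6438 and 17.4 ± 2.59 CPM in N2B27, adjusted p = 0.00615), and MAPK3, the gene of ERK1, and MAP2K1 fell, calls lost without 1 of 4 libraries each (adjusted p up to 0.216 for MAPK3, without EPZ-6438 replicate 1 or 3 or N2B27 replicate 1 or 2, and 0.0861 for MAP2K1, without EPZ-6438 replicate 1 or 2 or N2B27 replicate 1 or 3). PTPN11, the gene of the phosphatase SHP2, averaged 267 ± 8.8 CPM with EPZ-6438, 293 ± 4.24 CPM in N2B27 and 221 ± 33.6 CPM in PXGL. Its difference between EPZ-6438 and N2B27 did not pass (adjusted p = 0.266), but did so without PXGL replicate 1 (0.00225). Between N2B27 and PXGL, 4 rose and 10 fell, or 6 and 11 without PXGL replicate 1, where 27.3% of all genes rose and 28.7% fell. FRS3, an adaptor related to FRS2, averaged 2.42 ± 0.72 CPM in N2B27 and 5.25 ± 0.367 CPM in PXGL (adjusted p = 0.00274), and GAB1, a docking protein downstream of FGFRs, averaged 38.9 ± 2.73 CPM in N2B27 and 75.0 ± 8.62 CPM in PXGL (adjusted p = 2.01e-07).

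Feedback inhibitors and targets of ERK were higher together in N2B27 than in PXGL, the medium with the MEK inhibitor. PXGL also contains a tankyrase inhibitor, a protein kinase C inhibitor and LIF, and the parts of these components cannot be told apart. All 17 tested genes of 18 rose between N2B27 and PXGL, with a median log2 fold change of 3.40, where 27.3% of all genes rose. SPRY4, a Sprouty inhibitor, had 6040 counts over the N2B27 libraries and 1 over the PXGL libraries, a 7550-fold ratio (counting interval 1360 to 298000). DUSP4, an ERK phosphatase, averaged 62.7 ± 1.07 CPM in N2B27 and had no count in PXGL, and was at least 1140-fold higher in N2B27 when 3 counts are set for the PXGL group. Between EPZ-6438 and N2B27, 6 of the 17 fell, SPRY1, SPRY2, SPRY4, ETV1, ETV4 and ETV5, and 2 rose, IER3 and CCND1, or 7 and 4 without PXGL replicate 1. In that comparison 10.6% of all genes fell and 14.2% rose, or 17.9% and 19.2% without that library. SPRY1 averaged 6.88 ± 0.872 CPM with EPZ-6438 and 13.7 ± 3.34 CPM in N2B27 (adjusted p = 0.000487), and CCND1, the cell-cycle gene of cyclin D1, averaged 335 ± 10.3 CPM with EPZ-6438 and 267 ± 6.09 CPM in N2B27 (adjusted p = 0.00089). Against PXGL, 28.1% of all genes were higher with EPZ-6438 and 28% lower. This list had 16 higher and 1 lower, SPRY1, whose call was lost without EPZ-6438 replicate 1 or 2 or PXGL replicate 2 (adjusted p up to 0.106). That of IER3 between EPZ-6438 and N2B27 was lost without EPZ-6438 replicate 1 or N2B27 replicate 1 or 2 (adjusted p up to 0.091).

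Among 12 tested genes of other receptor tyrosine kinases, 3 rose and 4 fell between EPZ-6438 and N2B27, with a median log2 fold change of −0.18, where 14.2% of all genes rose and 10.6% fell. Without PXGL replicate 1, 3 rose and 5 fell, where 19.2% and 17.9% of all genes did. EGFR averaged 15.2 ± 1.3 CPM with EPZ-6438 and 5.52 ± 0.825 CPM in N2B27 (2.75-fold, adjusted p = 4.26e-06), and the insulin receptor gene INSR averaged 84.5 ± 4.83 CPM with EPZ-6438 and 118 ± 4.14 CPM in N2B27 (adjusted p = 0.00082). MET, the hepatocyte growth factor receptor gene, averaged 20.3 ± 1.41 CPM with EPZ-6438 and 12.1 ± 0.832 CPM in N2B27 (adjusted p = 0.00115). Between N2B27 and PXGL, where 27.3% of all genes rose and 28.7% fell, 7 of the 12 rose and 3 fell. The largest rises were in FLT1 and KDR, genes of VEGF receptors: FLT1 averaged 2.96 ± 0.227 CPM in N2B27 and 0.111 ± 0.0966 CPM in PXGL (adjusted p = 1.97e-06), and KDR averaged 29.9 ± 1.26 CPM in N2B27 and 1.78 ± 0.124 CPM in PXGL (adjusted p = 2.24e-13). FLT4, another VEGF receptor gene, went the other way, with 11.1 ± 1.58 CPM in N2B27 and 24.7 ± 1.02 CPM in PXGL (adjusted p = 4.15e-06).

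Between EPZ-6438 and PXGL, 12 heparan sulfate genes rose and 4 fell, 5 co-receptor genes rose and 0 fell (1 fell at an unadjusted p under 0.05, 0 with DESeq2), 5 adaptor and RAS-MAPK genes rose and 7 fell, and 6 other receptor tyrosine kinases rose and 4 fell, where 28.1% of all genes rose and 28% fell. Without PXGL replicate 1 the counts were 12 and 5, 6 and 1, 5 and 9, and 6 and 5 in the same order of lists. SDC2 averaged 41.6 ± 0.446 CPM with EPZ-6438 and 1.63 ± 0.719 CPM in PXGL (adjusted p = 1.38e-12). CDH2, the gene of N-cadherin, averaged 2.17 ± 0.565 CPM with EPZ-6438 and 0.313 ± 0.178 CPM in PXGL (adjusted p = 9.41e-05). PDGFRB, a receptor for platelet-derived growth factor, averaged 1.44 ± 0.393 CPM with EPZ-6438 and 0.11 ± 0.0949 CPM in PXGL (adjusted p = 0.00018). Genes named above rose and fell here too: FLRT2 had 30.1 ± 1.13 CPM with EPZ-6438 and 0.330 ± 0.164 CPM in PXGL and rose (adjusted p = 3.49e-13), and GAB1 had 33.9 ± 1.16 CPM with EPZ-6438 and 75.0 ± 8.62 CPM in PXGL and fell (adjusted p = 2.14e-08).

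**Figure D4:**
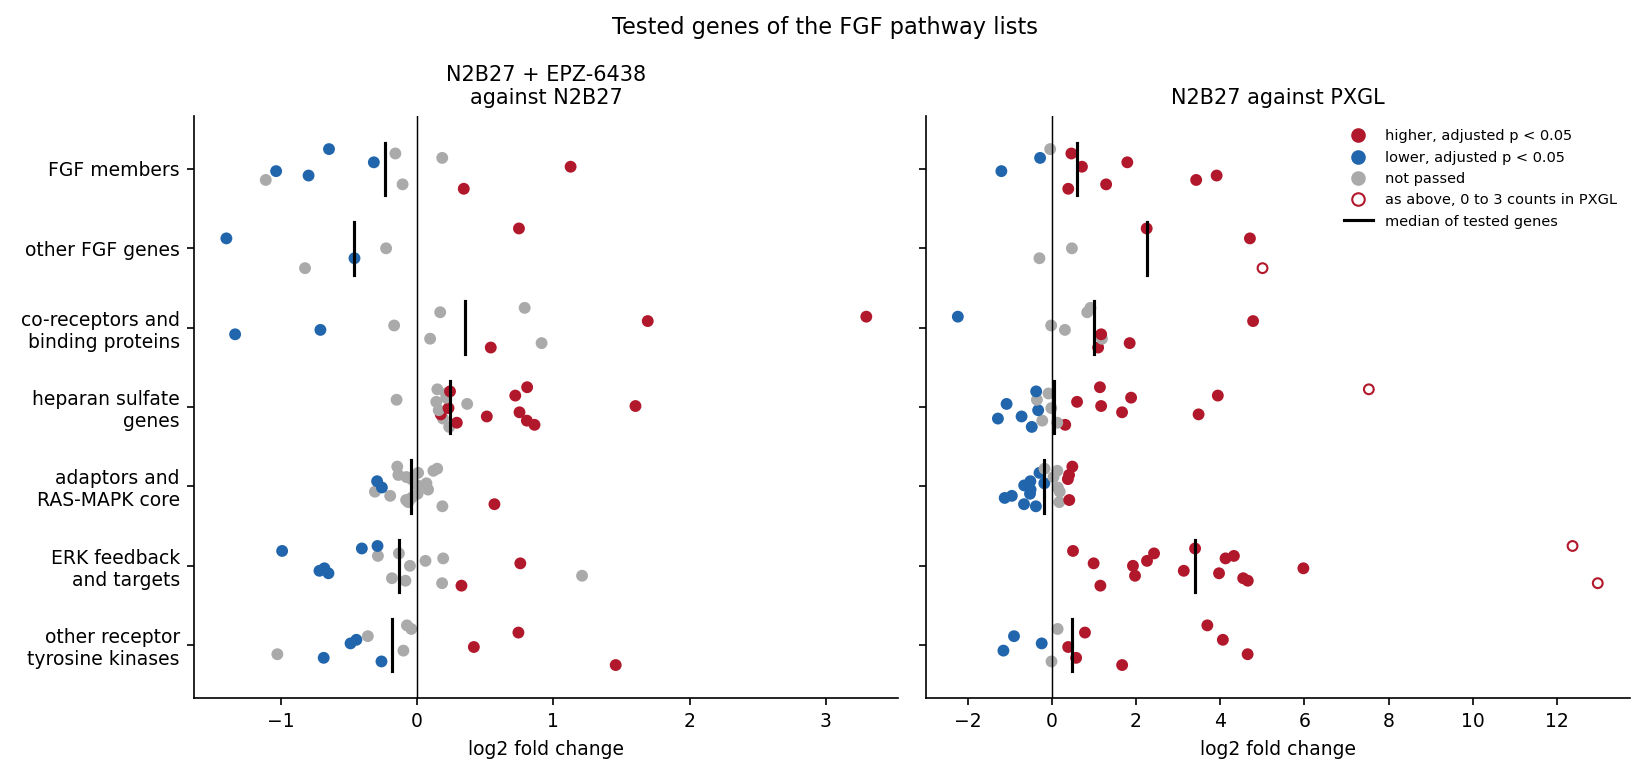
Log2 fold changes (horizontal axes) of the tested genes in each FGF pathway list, with EPZ-6438 against N2B27 on the left and N2B27 against PXGL on the right; black lines are list medians and open circles mark genes with 0 to 3 counts over the PXGL group, whose fitted values depend on the prior count. The ERK feedback list lies wholly above 0 on the right, with a median of 3.40, and has a median of −0.13 on the left.

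The sources used here do not say whether counting used strand, and without it the reads of genes that overlap on opposite strands cannot be told apart. NUDT6, which overlaps FGF2 exons on the opposite strand, had 1.10 to 2.24 CPM with EPZ-6438, 1.32 to 2.74 CPM in N2B27 and 3.999 to 4.78 CPM in PXGL, and FGF2 was the only member with deposited values that were not whole. FGF13-AS1, antisense to FGF13, had 1.07 to 1.22 CPM with EPZ-6438, 1.55 to 3.00 CPM in N2B27 and 0.274 to 0.833 CPM in PXGL. LETM2 overlaps FGFR1 exons on the opposite strand and had 267.85 deposited counts over all 9 libraries. FGF4 and FGF19 are neighbours on chromosome 11, with FGF3, at 0 counts, on the other side of FGF4 and LTO1 on the other side of FGF19. LTO1 had 14.2 to 19.6 CPM with EPZ-6438, 15.0 to 19.1 CPM in N2B27 and 12.1 to 15.5 CPM in PXGL, with overlapping ranges.

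Genes whose profile over the 9 libraries was most like that of a member were named by Pearson r of log2 CPM among 10028 candidates, as a description only, since the libraries fall into 3 culture groups. PODXL (r = 0.9994) was most like FGFR1, and PIPOX (0.9989) and THY1 (0.9987) most like FGF2. RCN3 (0.9965) and CKMT1A (0.9947), whose reads can be split with its near copy CKMT1B, were most like FGF4. For FGF8 they were SQSTM1 (0.9853) and FYN (0.9828), for FGF13 HMGB3 (0.9921) and TRIM43B (0.9913), for FGF17 ACADSB (0.9754) and BRD1 (0.9733), and for FGF19 PPM1H (0.9812) and CLINT1 (0.9766). For the other receptors they were MLLT10 (0.9628) and PDZD8 (0.9332) for FGFR2, CGAS (0.9878) and KCTD15 (0.9876) for FGFR3, and CCDC169 (0.9916) and LRPPRC (0.9906) for FGFR4. FGFR2 had the lowest best match of the 10.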

How the data were processed

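The authors deposited a single table of expected counts, which are estimates and not always whole, for 40332 gene symbols; 7.13% to 8.09% of values per library were not whole. The submitters' processing notes name Trim Galore, STAR 2.7.6a, DESeq2 and hg38. The counting program, the annotation and strandedness: not given in the sources used here. The labels' protocols name Trizol and a ribosomal RNA depletion kit while the molecule label says polyA RNA, which was not settled. The series text names both triplicate samples and duplicate RNA-seq, and the labels give 3 libraries per group. No source says that replicates were separate cultures; p-values cover the spread between these libraries only, and that may be technical. No same-group pair agreed within sampling noise (lowest chi-square per degree of freedom 2.57 over genes with at least 20 counts).

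Counts were rounded and fitted with edgeR 4.0.16 (R 4.3.3, filterByExpr, TMM, robust quasi-likelihood, all 9 libraries, 15179 genes tested) with Benjamini-Hochberg adjustment. The fit was tested on simulated data. CPM are TMM-scaled; lengths and coordinates came from GENCODE 29. Counting intervals (95%) and floors of 3 counts cover counting error only. Alternatives included DESeq2 1.42.0, other scalings, filters and lengths, the replicate block and leaving out each library. The members and gene lists were chosen with earlier results of these data known. Named are all members, the 2 largest called changes and the most abundant gene of each other list, 2 genes most like each member, and overlapping or neighbouring genes. FGF11, MAP2K1, KLB, FLT4, GBX2, ZIC1, SPRY2, ETV1, ETV4 and ETV5 were chosen after their values were seen. Not every value this rule picks is reported here.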

Additional observations from a re-analysis of the deposited data

How the results depend on the processing

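No member changed the sign of a called value, and the composition differences kept their direction, under the alternatives run. Requiring a 1.5-fold change left 616 genes higher and 108 lower between EPZ-6438 and N2B27 (main 2149 and 1603; members 1 and 2), 1354 and 1602 between N2B27 and PXGL (members 4 and 1), and 1622 and 1306 between EPZ-6438 and PXGL (members 5 and 1); fewer genes can meet a fold requirement. In a fit of the 2 groups alone, 2719 genes were lower between EPZ-6438 and N2B27. Leaving out 1 library at a time gave 1076 to 2786 such genes, with 2786 and 2984 higher without PXGL replicate 1, and 1 to 2 members lower between N2B27 and PXGL; the cause was not tested. Between EPZ-6438 and N2B27, leaving out 1 library gave 2 to 3 members higher and 4 to 6 lower. With the union of exons as length, share differences in percentage points were 8.19 for FGFR1, 5.33 for FGFR3, −7.8 for FGFR4 and −56.6 for FGF4 between N2B27 and PXGL. They were 7.78 for FGFR1, 8.66 for FGFR3, −15.3 for FGFR4, 51.4 for FGF2 and 9.98 for FGF8 between EPZ-6438 and PXGL, and 8.89 for FGF8 between EPZ-6438 and N2B27. Same-numbered libraries did not deviate together (9 pairs, r −0.026 to 0.037). This check cannot exclude a small shared effect, and the labels do not say what the numbers stand for. With the replicate block, 2 members were higher and 5 lower between EPZ-6438 and N2B27, FGF19 passing (log2 fold change −1.21, adjusted p = 0.0402), and the other comparisons gave 7 higher and 2 lower. FGF16 lost its call between EPZ-6438 and N2B27 under the block (adjusted p = 0.0619). FGF17 and FGF19 had the fewest counts and the widest intervals of the members.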
